A study of Arabidopsis thaliana with 6 samples.

Results

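The 10 genes described here belong to the pathway that makes aliphatic glucosinolates from methionine in Arabidopsis thaliana: MYB28, MYB29, MYB76, BCAT4, MAM1, MAM3, CYP79F1, CYP79F2, CYP83A1 and FMOGS-OX1. Their locus codes are, in that order, AT5G61420, AT5G07690, AT5G07700, AT3G19710, AT5G23010, AT5G23020, AT1G16410, AT1G16400, AT4G13770 and AT1G65860. They were chosen by locus code, with earlier results of these data known, and all 10 were among the 27978 rows of the deposited count table. RNA was read in 6 libraries of wild-type Columbia (Col) plants, 2 per group. Seedlings 4 days old were moved to plates with 1 nM indole-3-acetic acid (IAA, an auxin) or 10 nM melatonin (MT), or served as controls, for which the protocol names 0.1% ethanol and the treatment label says that they were untreated. The titles put all libraries at 7 days, the control columns of the table are named 72 h, and the labels name seedlings where the design text names rosette leaves. The age of the controls is therefore uncertain in every value against control, and the organs sampled are uncertain in every comparison.

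Glucosinolates are sulfur-rich compounds of cabbages and their relatives, which the enzyme myrosinase splits into pungent, defensive products when tissue is damaged. For the aliphatic kind, methionine is lengthened by cycles of added carbon, turned into an aldoxime by CYP79F enzymes, oxidized by CYP83A1, joined to sulfur, glucose and sulfate, and then modified at its side chain. MYB28, MYB29 and MYB76 are transcription factors that switch these genes on, with MYB28 and MYB29 as the main activators. A separate indole branch starts from tryptophan and has its own MYB factors and P450 enzymes.

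Total counts ran from 40087221 to 65558371 per library, so that a count of 3 stood for 0.0463 to 0.0748 CPM (counts scaled to a common library size, with TMM factors). All 10 genes passed the low-count filter, with counts from 51 for MYB76 to 16403 for CYP83A1. MT replicate 1 stood apart from the other libraries in its plastid reads, at 0.285% of its counts against 0.0196% to 0.0244% elsewhere, and the MT fold change of each of the 10 genes is also given without it. Nothing in the labels says that the replicates came from separate cultures, and the spread behind each p-value may be technical.

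Several of the 10 genes are neighbouring copies, which bears on how reads were assigned. In the RefSeq TAIR10.1 annotation CYP79F2 lies on chromosome 1 at 5605044 to 5607498, and CYP79F1 follows 1183 bases on, at 5608682 to 5612064, on the same strand. Their coding sequences were 91.9% identical, and 54 of the 1568 stretches of 50 bases in that of CYP79F1 (3.44%) also occurred in CYP79F2. MYB29 and MYB76 lie 1442 bases apart on chromosome 5 and were 77.46% identical, and MAM1 and MAM3, 11144 bases apart on the same chromosome, were 83.8% identical. No stretch of 50 bases was shared within either of those pairs, and FMOGS-OX1 shared 4 with its relative FMOGS-OX2 (0.301%). BCAT4 overlaps AT3G19700 on the opposite strand, a gene with 0 to 5 reads per library in the table.

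The promoters of the 3 genes that commit the lengthened amino acid to the core structure, CYP79F1, CYP79F2 and CYP83A1, are shown because they were the members that held the word ACCTACC, one of the AC-type words that plant MYB factors can bind. The windows run from 250 bases before to 50 bases after the annotated start, are written 5′ to 3′ on the gene's strand, and come from RefSeq TAIR10.1 by locus code (the authors' build is not given in the sources used here). Capitals mark ACCTACC, or GGTAGGT on the other strand, and CACGTG, the G-box bound by factors such as MYC2. The CYP79F1 window is chr1:5608432-5608731 (+), that of CYP79F2 chr1:5604794-5605093 (+) and that of CYP83A1 chr4:7992380-7992679 (-).
CYP79F1: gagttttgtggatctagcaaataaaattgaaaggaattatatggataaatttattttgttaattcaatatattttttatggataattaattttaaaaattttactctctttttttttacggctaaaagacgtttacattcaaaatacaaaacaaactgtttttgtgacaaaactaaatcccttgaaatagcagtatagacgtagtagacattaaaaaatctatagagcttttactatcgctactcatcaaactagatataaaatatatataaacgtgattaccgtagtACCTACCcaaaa
CYP79F2: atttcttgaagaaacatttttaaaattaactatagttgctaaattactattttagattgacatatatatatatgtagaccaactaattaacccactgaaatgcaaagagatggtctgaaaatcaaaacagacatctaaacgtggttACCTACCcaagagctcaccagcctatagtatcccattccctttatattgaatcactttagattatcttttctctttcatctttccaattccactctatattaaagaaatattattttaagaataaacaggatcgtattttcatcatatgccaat
CYP83A1: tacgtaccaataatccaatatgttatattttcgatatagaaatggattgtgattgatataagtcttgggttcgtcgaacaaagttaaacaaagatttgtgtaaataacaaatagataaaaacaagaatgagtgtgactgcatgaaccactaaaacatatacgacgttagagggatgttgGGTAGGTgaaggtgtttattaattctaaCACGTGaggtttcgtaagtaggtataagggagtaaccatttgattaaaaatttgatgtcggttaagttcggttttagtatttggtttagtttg

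The word ACCTACC was in 3 of the 10 promoters and in 1.38% of 27443 protein-coding promoters of the same length, on either strand. CYP79F1 and CYP79F2 are neighbouring copies, so that their matches cannot be counted as independent. The word was also picked from several searched because it matched, so that the share is no test of enrichment. It began 104 bases before the start of CYP79F2, 71 bases before that of CYP83A1 and 38 bases after that of CYP79F1. The G-box stood 43 bases before the start of CYP83A1 and in no other member (7.68% of all promoters). Of the other words searched, none of which overlaps ACCTACC or CACGTG in these windows, ACCTAAC was found in FMOGS-OX1 (2.88% of all promoters), CATGTG in FMOGS-OX1 (12.9%), ACCAAAC in none (9.90%) and TATAAA in 7 members (52.1%). A match describes letters in the window and does not show that a factor binds there.

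Per kilobase of exon, 3 enzymes had the highest control levels of the 10 genes and the regulator MYB76 the lowest. Mean CPM per kilobase in the control libraries was 152 for CYP83A1, 137 for MAM1, 132 for BCAT4, 76.4 for MYB28, 49.9 for CYP79F1, 37.1 for MYB29, 28.0 for CYP79F2, 24.4 for MAM3, 17.8 for FMOGS-OX1 and 1.57 for MYB76. MAM1 (140 and 134) and BCAT4 (135 and 128) did not separate in this order, nor did CYP79F2 (27.3 and 28.7) and MAM3 (20.6 and 28.2), whereas the other neighbours did not overlap between their control libraries. The CYP79F1 value depends on the annotated exon length, 3272 bases against a coding length of 1617: its ratio to CYP79F2 in control was 1.85 and 1.71 per exonic length, and 2.99 and 2.77 per coding length.

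With MT, 9 of the 10 genes had lower fitted levels than in control, with changes of -38.0% (MYB76) to -23.5% (CYP83A1), and MAM3 was the exception. The median log2 fold change of the 10 genes was -0.46, against 0.00 over all 21267 genes tested. The groups did not overlap, with both MT libraries below both controls, for the same 9 genes, where 22.2% of all genes tested were lower without overlap. CYP83A1 was the only gene past the threshold of an adjusted p of 0.05 in edgeR's quasi-likelihood test (Benjamini-Hochberg over all genes), 1 of 10 where 0.226% of all genes were called lower. At an unadjusted p under 0.05, 8 of the 10 were lower, where 4.58% of all genes were, and DESeq2 called 7 where it called 0.675% of the genes it tested lower: MYB29, BCAT4, MAM1, CYP79F1, CYP79F2, CYP83A1 and FMOGS-OX1.

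With IAA, 9 of the 10 genes again had lower fitted levels than in control, MAM3 being the exception, and none of the 10 was called in edgeR's quasi-likelihood test (0.118% of all genes were called lower). The median log2 fold change was -0.23, against 0.01 over all genes, and it was -0.15 without IAA replicate 1 and -0.38 without IAA replicate 2. The IAA libraries lay below both controls without overlap for 7 genes (20.2% of all genes), and 3 genes, BCAT4, CYP79F2 and CYP83A1, were lower at an unadjusted p under 0.05 (4.27% of all genes). DESeq2 called CYP79F2 alone (0.643% of the genes it tested were called lower). The MT and IAA differences share the 2 control libraries and are not independent of each other.

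**Figure D1:**
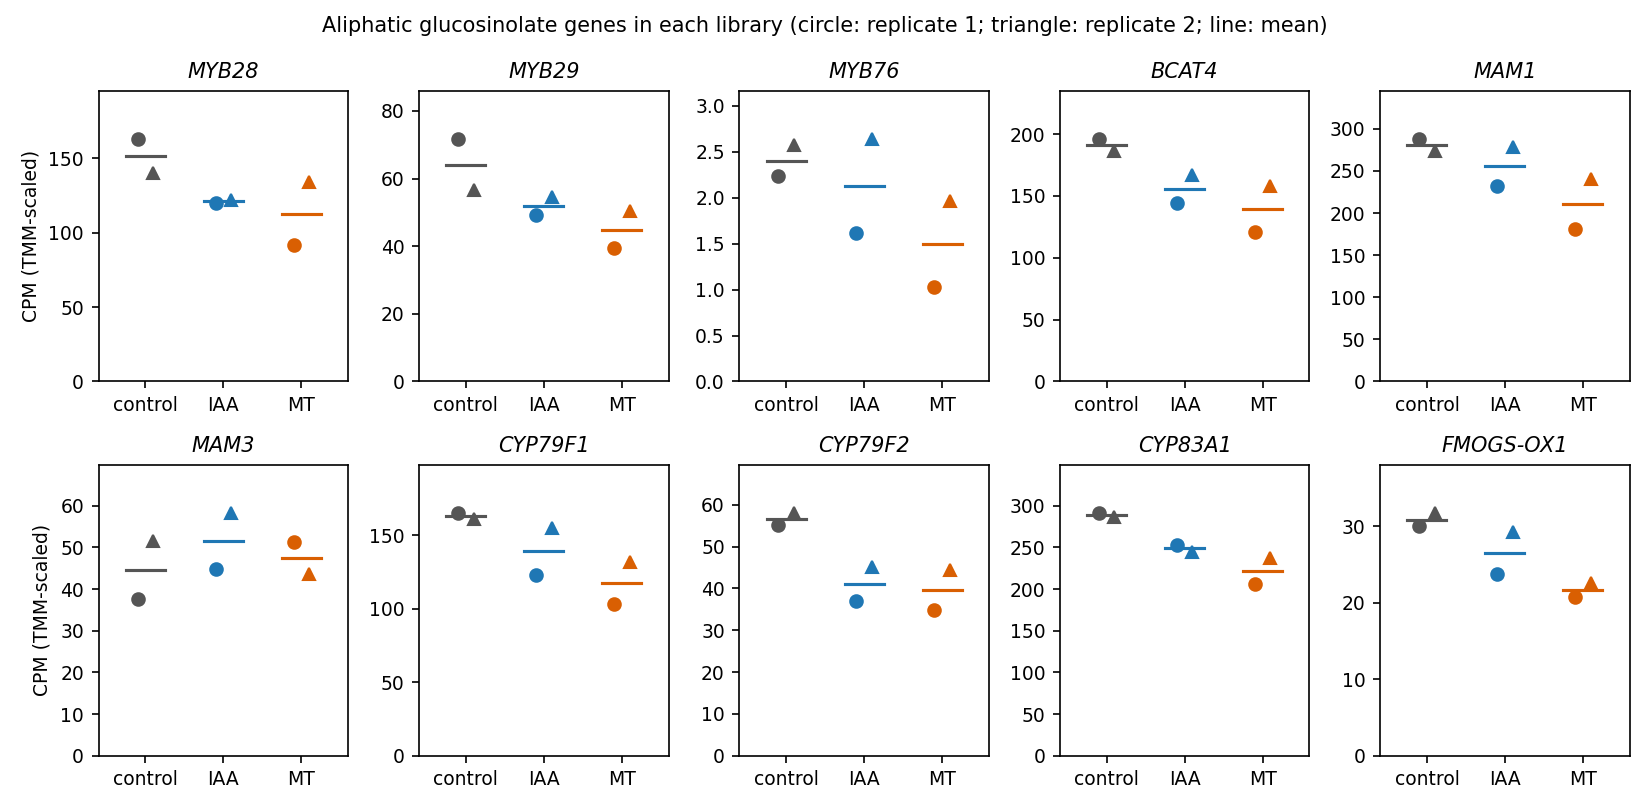
Levels of the 10 genes in every library, as TMM-scaled CPM on a linear axis from 0, by group, with circles for replicate 1, triangles for replicate 2 and a line at the mean of the 2. MT replicate 1 was the lowest library for each gene except MAM3, and both controls lay above both MT libraries for every gene but MAM3.

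Among the regulators, MYB28, the factor with the highest level, was at 163 and 140 CPM in control, 120 and 122 CPM with IAA, and 91.4 and 134 CPM with MT. Both treated groups lay below control without overlap, and the MT libraries stood on either side of the IAA libraries. The log2 fold change was -0.32 ± 0.15 with IAA and -0.42 ± 0.15 with MT (SE; adjusted p = 0.504 and 0.276), the latter -0.17 without MT replicate 1. MYB29, its closest partner in function, was at 71.7 and 56.6 CPM in control, 49.3 and 54.5 CPM with IAA, and 39.5 and 50.3 CPM with MT. Here too no treated library reached the lower control, and the log2 fold change was -0.31 ± 0.14 with IAA and -0.52 ± 0.14 with MT (SE; adjusted p = 0.464 and 0.136), the latter -0.35 without MT replicate 1.

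MYB76, whose role in the pathway is the smallest of the 3 factors, was read at 2.24 and 2.57 CPM in control, 1.62 and 2.64 CPM with IAA, and 1.03 and 1.97 CPM with MT. IAA replicate 2 was its highest library and MT replicate 1 its lowest, and the IAA group overlapped control (log2 fold change -0.18 ± 0.37 SE), whereas both MT libraries lay below it. The interval of its MT difference (-0.69 ± 0.38 SE, adjusted p = 0.502) ran from -1.56 to 0.18 on the log2 scale (95%), so that neither a large fall nor no change lay outside it at counts of 51 to 122. Without MT replicate 1 the difference was -0.29. The ratio of MYB28 to MYB29 per exonic length stayed between 1.97 and 2.33 in the 6 libraries.

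Chain elongation begins with BCAT4, which removes the amino group of methionine. BCAT4 was at 196 and 186 CPM in control, 144 and 167 CPM with IAA, and 121 and 158 CPM with MT. All treated libraries were below both controls, with log2 fold changes of -0.30 ± 0.12 for IAA and -0.45 ± 0.12 for MT (SE; adjusted p = 0.413 and 0.136). The MT value was -0.27 without MT replicate 1.

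MAM1 and MAM3 are the synthases that add carbon to the chain, MAM1 for short chains and MAM3 also for long ones, and they differed from each other. MAM1 was at 288 and 274 CPM in control, 232 and 279 CPM with IAA, and 181 and 241 CPM with MT. IAA overlapped control (log2 fold change -0.14 ± 0.13 SE, adjusted p = 0.771) and MT lay below it (-0.41 ± 0.13 SE, adjusted p = 0.215, and -0.22 without MT replicate 1). MAM3 was at 37.6 and 51.6 CPM in control, 44.9 and 58.2 CPM with IAA, and 51.3 and 43.7 CPM with MT. It overlapped between all groups, with log2 fold changes of 0.21 ± 0.17 for IAA and 0.09 ± 0.17 for MT (SE; adjusted p = 0.714 and 0.867), and its 95% interval for MT ran from -0.29 to 0.47. The MT value of MAM3 was -0.03 without MT replicate 1 and -0.13 without control replicate 1. Per exonic length, MAM1 stood at 6.83 and 4.73 times MAM3 in the controls, at 4.62 and 4.27 times in the IAA libraries, and at 3.15 and 4.92 times in the MT libraries. Whether MAM3 responded differently from MAM1 was not tested.

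CYP79F1 and CYP79F2 catalyse the entry into the core pathway, CYP79F1 on short and long chains and CYP79F2 on long chains. CYP79F1 was at 165 and 161 CPM in control, 123 and 155 CPM with IAA, and 103 and 132 CPM with MT. CYP79F2 was at 55.2 and 58.0 CPM in control, 37.0 and 45.2 CPM with IAA, and 34.9 and 44.3 CPM with MT. For both genes every treated library was below both controls and the 2 treatments overlapped. The log2 fold changes were -0.23 ± 0.13 (IAA) and -0.47 ± 0.13 (MT) for CYP79F1, and -0.46 ± 0.13 (IAA) and -0.52 ± 0.13 (MT) for CYP79F2 (SE; adjusted p = 0.590, 0.158, 0.212 and 0.104). Without MT replicate 1 the MT values were -0.30 and -0.35. CYP79F2 thus had the lowest adjusted p of the 10 genes with IAA. Per exonic length, CYP79F1 stood at 2.05 and 2.12 times CYP79F2 in the IAA libraries and at 1.82 and 1.84 times in the MT libraries, beside the control ratios of 1.85 and 1.71, so that it was higher in the IAA libraries than in the others.

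CYP83A1, the P450 that oxidizes the aldoximes, was at 291 and 287 CPM in control, 253 and 245 CPM with IAA, and 206 and 237 CPM with MT. The 3 groups did not overlap, with control highest and MT lowest. CYP83A1 fell by 0.39 on the log2 scale with MT (SE 0.07, 95% interval -0.56 to -0.22, adjusted p = 0.0414), and its value with IAA was -0.22 ± 0.07 (SE; adjusted p = 0.331). The MT call ended without control replicate 1 (adjusted p = 0.308), control replicate 2 (0.129), IAA replicate 1 (0.0598), IAA replicate 2 (0.0651) or MT replicate 1 (0.178, with a log2 fold change of -0.29). It also ended in a fit of control and MT alone (0.0701) and with the replicate numbers as a block (0.0589). Over all 13 alternatives the adjusted p ran from 1.19e-04 to 0.308 and the log2 fold change from -0.50 to -0.29.

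FMOGS-OX1, a flavin monooxygenase that oxidizes the sulfur of the side chain, was at 30.0 and 31.7 CPM in control, 23.8 and 29.3 CPM with IAA, and 20.7 and 22.6 CPM with MT. MT lay below IAA and IAA below control, with no overlap. Its log2 fold change was -0.22 ± 0.11 with IAA (SE; adjusted p = 0.539) and -0.51 ± 0.11 with MT, the latter with an adjusted p of 0.0755, the closest to the threshold of the genes that missed it, and its value was -0.45 without MT replicate 1. It passed in the fit of control and MT alone (0.0484), in which CYP83A1 did not.

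**Figure D2:**
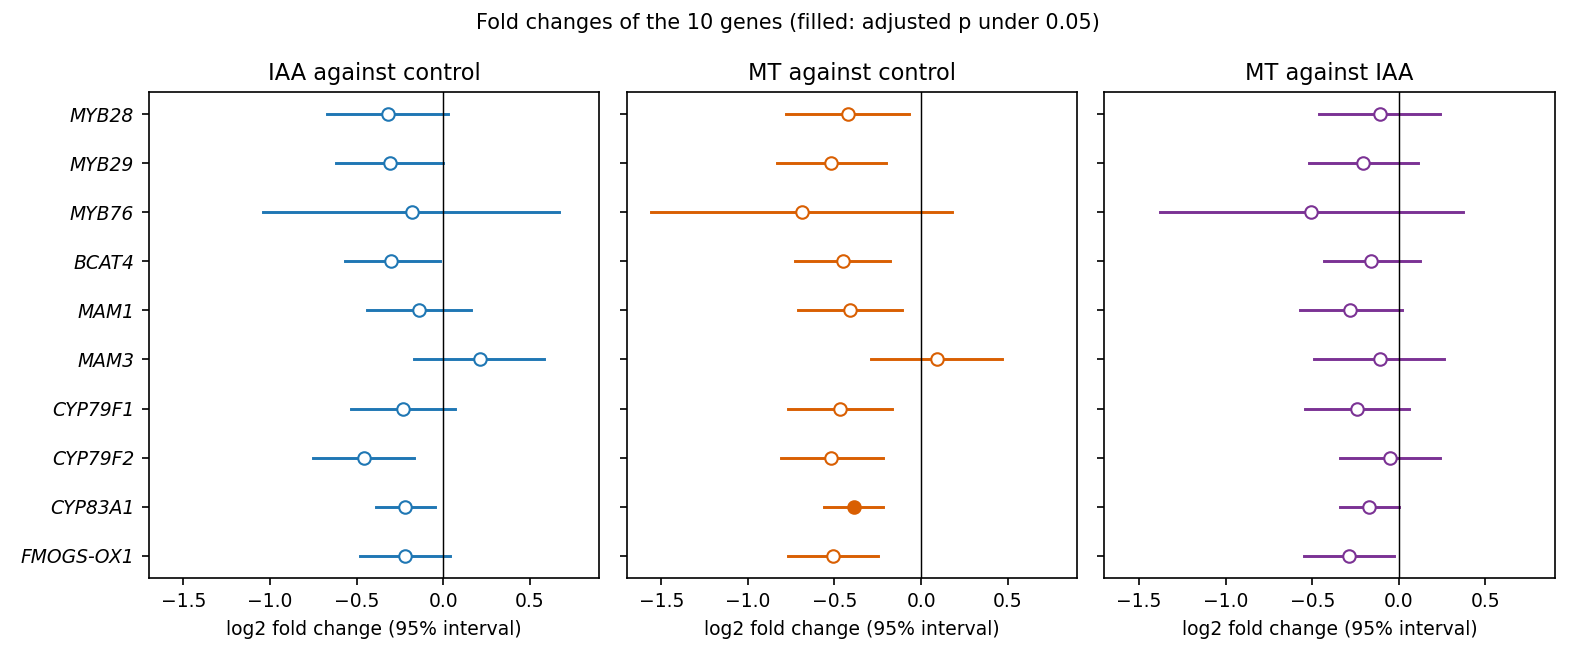
Log2 fold changes of the 10 genes with their 95% intervals in 3 comparisons, filled where the adjusted p was under 0.05. With MT against control, 8 of the 10 intervals lay below 0, CYP83A1 was the filled point, and MAM3 (0.09) was the only gene above 0. With IAA the interval lay below 0 for BCAT4, CYP79F2 and CYP83A1.

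MT and IAA, whose doses differed, were also set against each other. The age of the controls does not touch this comparison, but the organs sampled are uncertain in it too. All 10 genes had lower fitted levels with MT than with IAA, by a median of -0.19 on the log2 scale (all genes, -0.01). None was called in edgeR's quasi-likelihood test or by DESeq2 (0.0141% and 0.361% of the genes they tested were called lower). FMOGS-OX1 (-0.29 ± 0.11 SE, 95% interval -0.55 to -0.03) and CYP83A1 (-0.17 ± 0.07 SE) were the 2 genes lower without overlap, where 20.4% of all genes were, and also the 2 with an unadjusted p under 0.05 (0.0332 and 0.0497; 4.53% of all genes). For CYP79F2 the difference was -0.05, with a 95% interval from -0.34 to 0.24. Without MT replicate 1 the median was -0.07 and 7 of the 10 genes were lower. In the test for any difference among the 3 groups, 0 of the 10 genes passed in edgeR's quasi-likelihood test (1.33% of all genes did), 7 had an unadjusted p under 0.05 (13.6% of all genes), and DESeq2 called 6 (4.14% of the genes it tested).

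The spread within the treated groups was shared by the genes. MT replicate 2 was above MT replicate 1 for 9 of the 10 genes, by a median of 0.36 on the log2 scale, and IAA replicate 2 was above IAA replicate 1 for 9, by a median of 0.28. The median absolute gap between replicates over all genes was 0.15 for MT and 0.14 for IAA. Between the controls the median gap of the 10 genes was -0.03 and 4 were higher in replicate 2. The size of the MT difference therefore rested in part on MT replicate 1: the median log2 fold change was -0.29 without it and -0.67 without MT replicate 2. All 10 genes, MAM3 included, were lower in MT replicate 2 than the control mean, by the fit without MT replicate 1.

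Markers of root tissue also differed between these libraries. The summed level of 9 root endodermis markers was 20.1 and 28.3 CPM in control, 33.8 and 35.7 CPM with IAA, and 72.8 and 41.5 CPM with MT, and that of 6 root hair markers was 5.62 and 11.5 CPM, 15.6 and 20.6 CPM, and 30.3 and 15.0 CPM. MT replicate 1, where 9 of the 10 glucosinolate genes were lowest, was the highest library for both lists. With MT all 9 and all 6 markers had positive fold changes, with medians of 1.28 and 1.30 (0.60 and 0.84 without MT replicate 1, with 8 of 9 and 6 of 6 positive). Of them 7 and 4 had an unadjusted p under 0.05, where 8.67% of all genes were higher, and DESeq2 called 4 and 3, where it called 2.81% of its genes higher. In edgeR's quasi-likelihood test the endodermis genes CASP1 (log2 fold change 1.95 ± 0.39 SE) and PER72 (1.28 ± 0.19) and the root hair gene LRX1 (1.47 ± 0.29) rose, 2 of 9 and 1 of 6 markers, where 1.67% of all genes were called higher; without MT replicate 1 the counts were 1 and 0. Their adjusted p was 0.0479, 0.0120 and 0.0447. With IAA edgeR's quasi-likelihood test called 0 of the 9 and 0 of the 6, with 1 and 3 at an unadjusted p under 0.05 (6.71% of all genes higher), and DESeq2 called 1 of each list (1.41% higher). None of the markers was at 0 in any library. The summed level of 8 shoot photosynthesis markers was 43039 and 40817 CPM in control, 43675 and 43000 CPM with IAA, and 40872 and 41940 CPM with MT. Each treatment overlapped control, and MT lay below IAA. With MT against IAA all 8 were negative, with a median of -0.06 (all genes, -0.01), and 5 were lower without overlap (20.4% of all genes). None of the 8 passed edgeR's quasi-likelihood test or DESeq2, or had an unadjusted p under 0.05, in any comparison, and LHCB1.1, the marker with the lowest p, was at 0.11 ± 0.06 (log2, SE) with IAA. Where cell types are read together, a smaller share of expressing cells and less RNA per cell cannot be told apart. The part of tissue composition in the glucosinolate values was not tested.

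**Figure D3:**
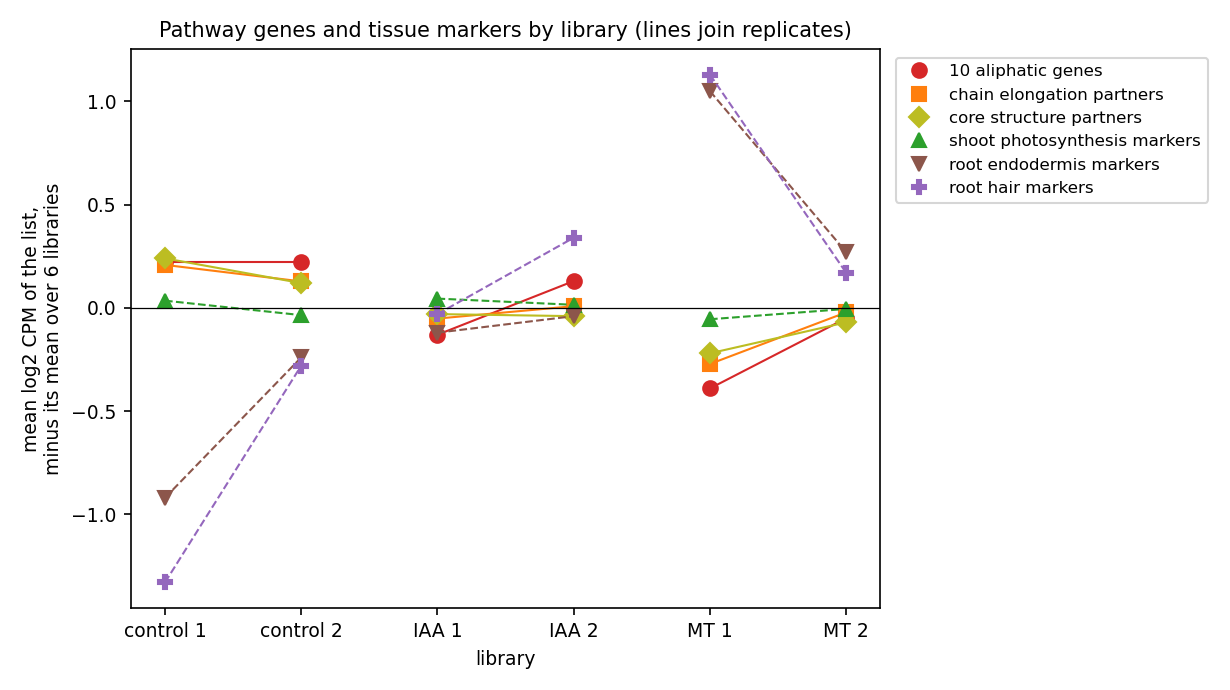
Mean log2 CPM of each gene list in the 6 libraries, with the list's mean over the libraries subtracted. Lines join replicates, solid for pathway lists and dashed for tissue markers. The 10 aliphatic genes stood at 0.22 in both controls and lowest in MT replicate 1, at -0.39, where the root endodermis and root hair markers were highest.

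The 15 other genes listed for chain elongation and core structure all had fitted levels below control with MT. The 7 partners in chain elongation (the transporter BASS5, the aminotransferase BCAT3, and the isomerases and dehydrogenases of the cycle) all had negative fold changes with MT, with a median of -0.32, and all 7 had an unadjusted p under 0.05, where 4.58% of all genes were lower. IPMI1, a small subunit of the isomerase, had the lowest p of them (-0.55 ± 0.13 SE, adjusted p = 0.0933). The 8 enzymes that complete the core structure, some of which add glutathione, glucose or sulfate, were likewise all negative, with a median of -0.32. Of them 7 had an unadjusted p under 0.05. GSTF11, a glutathione transferase, was at 14.5 and 14.1 CPM in control, 12.7 and 12.3 CPM with IAA, and 9.95 and 10.4 CPM with MT (-0.49 ± 0.10 SE, adjusted p = 0.0580). None of these 15 genes passed in edgeR's quasi-likelihood test, where 0.226% of all genes were called lower, and DESeq2 called 3 of the 7 and 4 of the 8 (0.675% of its genes). Without MT replicate 1 the medians were -0.14 and -0.24, and all 15 genes were negative. Without MT replicate 2 the medians were -0.54 and -0.41. With IAA the medians were -0.17 and -0.20, with 0 of 15 called by edgeR's quasi-likelihood test (0.118% of all genes were called lower). At an unadjusted p under 0.05, 3 and 5 genes were lower with IAA (4.27% of all genes). DESeq2 called 1 and 0 with IAA (0.643% of its genes were called lower).

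Of the genes that supply activated sulfate, 2 were called. APK1 and APK2, the kinases that make the sulfate donor PAPS for glucosinolate synthesis, fell by 0.40 and 0.47 on the log2 scale with MT (adjusted p = 0.0195 and 0.0479). They were the 2 of 9 supply genes called by edgeR's quasi-likelihood test, where 0.226% of all genes were called lower, and DESeq2 called 2 lower and 1 higher (0.675% and 2.81% of its genes). APK1 was at 141 and 136 CPM in control, 112 and 118 CPM with IAA, and 102 and 108 CPM with MT, with no overlap between groups. APK2 was at 122 and 116 CPM in control, 95.7 and 101 CPM with IAA, and 77.4 and 94.9 CPM with MT, likewise with no overlap. APR3, a reductase that draws sulfate to cysteine instead, was at 0.39 ± 0.12 with MT (SE; adjusted p = 0.187). Its relatives APR1 and APR2 were at 0.02 ± 0.07 and 0.14 ± 0.08 with MT (SE). Without MT replicate 1 none of the 9 was called by edgeR's quasi-likelihood test, and 2 were lower at an unadjusted p under 0.05.

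Side chain genes, transporters and other regulators did not lie on 1 side of 0. Of 10 side chain genes 6 were tested, with a median of -0.05 with MT. AOP2 had no row in the count table, and the others left out did not pass the low-count filter. In edgeR's quasi-likelihood test 0 were called (0.226% of all genes were called lower). At an unadjusted p under 0.05, 1 was lower (4.58% of all genes), and DESeq2 called 1 lower (0.675% of its genes). FMOGS-OX3, a relative of FMOGS-OX1, was at -0.56 ± 0.12 (SE; adjusted p = 0.0538), whereas FMOGS-OX2, FMOGS-OX4 and FMOGS-OX5 were at -0.08, 0.02 and -0.03. The glucosinolate transporters GTR1, GTR2 and GTR3 were at 0.13, -0.06 and -0.04 with MT. GTR1 had the lowest p of them, with MT against IAA (0.15 ± 0.08 SE, adjusted p = 0.539), and none was called in any comparison by edgeR's quasi-likelihood test or DESeq2, or had an unadjusted p under 0.05. Among 7 other regulators, MYC2, a jasmonate-response factor that acts with the MYB factors on glucosinolate genes, was the only 1 called by edgeR's quasi-likelihood test. That test called 0.583% of all genes higher with IAA and 1.67% with MT. DESeq2 called 2 regulators with IAA and 1 with MT, where it called 1.41% and 2.81% of its genes higher. MYC2 rose from 36.4 and 49.0 CPM in control to 80.8 and 88.0 CPM with IAA and 94.6 and 96.0 CPM with MT (log2 fold change 0.98 ± 0.12 and 1.16 ± 0.12, SE; adjusted p = 0.0187 and 0.00285). Its relatives MYC3 and MYC4 were at -0.01 and -0.10 with MT. SDI1, a repressor of aliphatic glucosinolate synthesis that responds to sulfur supply, was at 0.71 ± 0.19 with IAA and 0.62 ± 0.19 with MT (SE; adjusted p = 0.205 and 0.203).

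As a list the indole branch did not share the downward lean, though 4 of its genes were below 0 with MT. Among these, GSTF9 was at -0.13 and MYB34 at -0.11. The 14 indole genes had a median log2 fold change of 0.33 with MT, and 10 were positive. In edgeR's quasi-likelihood test 3 were called higher (MYB51, IGMT2 and CYP81F2) and 0 lower, where 1.67% of all genes were called higher. The indole median was 0.18 without MT replicate 1 and 0.46 without MT replicate 2. MYB51, an activator of indole glucosinolate genes, rose by 0.94 ± 0.13 with IAA and 1.72 ± 0.13 with MT on the log2 scale (SE; adjusted p = 0.0242 and 6.09e-04). IGMT2 and CYP81F2, which modify the indole ring, rose by 2.15 ± 0.27 and 1.46 ± 0.27 with MT (SE; adjusted p = 0.00602 and 0.0352). The difference between the branches was not tested, nor was it examined whether enzymes of the other lists also serve the indole branch. Of the enzymes of indole core synthesis, CYP79B2 was at 0.05, SOT16 at 0.03, CYP79B3 at -0.07 and CYP83B1 at -0.12 with MT. The glutathione transferases GSTF9 and GSTF10 differed in sign, with GSTF10 at 0.24 ± 0.06 (SE; adjusted p = 0.106). CYP83B1 is the counterpart of CYP83A1, and per exonic length CYP83A1 stood at 1.37 and 1.34 times CYP83B1 in the controls, at 1.31 and 1.17 times in the IAA libraries, and at 1.11 and 1.15 times in the MT libraries. The ratio was thus below both controls in every treated library, and lowest with MT. Of the myrosinase genes, TGG2 rose by 0.82 ± 0.06 with IAA (SE; adjusted p = 0.00445). Its value with MT against control was 0.04 ± 0.06, and it fell by 0.78 with MT against IAA (adjusted p = 0.00546).

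**Figure D4:**
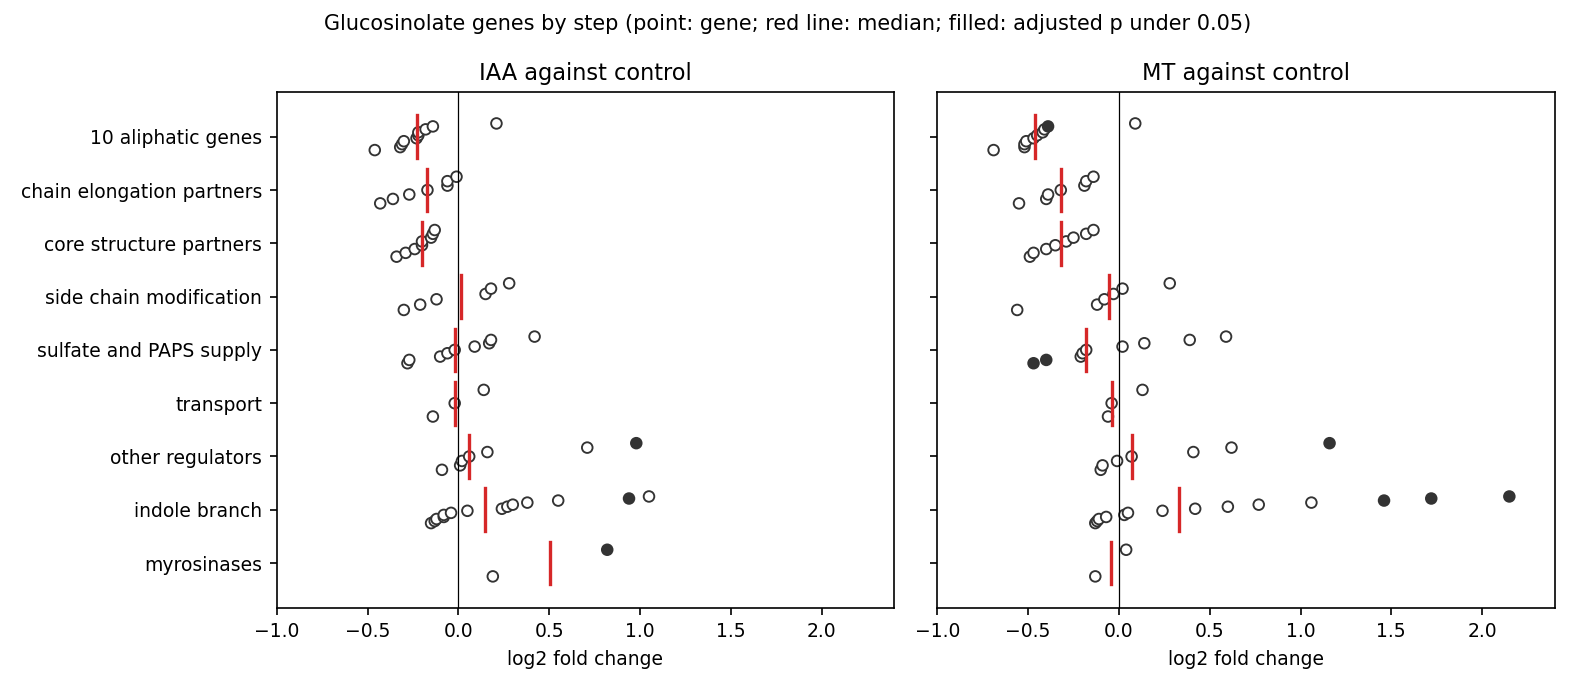
Log2 fold changes with IAA and with MT against control for glucosinolate genes grouped by step, with 1 point per gene, a red line at each median and filled points where the adjusted p was under 0.05. With MT the medians were -0.46 for the 10 genes, -0.32 for both sets of partner enzymes and 0.33 for the indole branch. The 2 panels share the same control libraries.

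Across the 6 libraries the genes whose pattern was most like the mean of the 10 were sought among 18658 genes with a mean of at least 1 CPM. Likeness was the root mean square difference of centred log2 CPM over the 6 libraries, and the points share the libraries and their scaling, so that it is a description. The 5 closest were AT1G66660 (0.045), AT1G23130 (0.050), AT1G64370 (0.051), AT1G52720 (0.053) and AT1G67860 (0.053). BASS5, which carries chain elongation intermediates across the plastid envelope, ranked 7 and APK2 ranked 11, both chosen for mention after their ranks were seen. All 7 chain elongation partners, 7 of the 8 core structure enzymes and 5 of the 9 sulfate supply genes stood in the closest 10% of genes, against 2 of the 13 ranked indole genes, 1 of 6 side chain genes and none of the transporters, other regulators, myrosinases and tissue markers.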

How the data were processed

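The deposited table holds raw, whole-number counts for each gene. The submitters' processing notes name DESeq, HTSeq 0.6.1, TopHat2 2.0.12 and Bowtie2 2.2.3, with no role or order. Genome build, annotation and use of strand were not given in the sources used here. Where strand was not kept, overlapping genes cannot be separated. Libraries were grouped by their titles.

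Genes were filtered with filterByExpr (21267 kept, 6711 removed), scaled by TMM, and tested with edgeR 4.0.16 (glmQLFit and glmQLFTest, R 4.3.3) with all 6 libraries in 1 fit. P-values were adjusted by Benjamini-Hochberg over all genes tested, with a threshold of 0.05, and the counts of DESeq2 1.42.0 stand beside them, with shares over the genes to which it gave an adjusted p. SE is the log2 fold change over the root of the F statistic, and log2 CPM used a prior count of 2. The smallest readable level (3 counts) covers counting error only. The test was checked on simulated counts. Locus codes were matched to RefSeq TAIR10.1 for names, lengths, neighbours and promoters. Alternatives were RLE factors, library totals, DESeq2, other filters and thresholds, a replicate block, fits of 2 groups, and leaving out each library. Named genes were all 10 members, and from each other list the genes called or else the one with the lowest p. A few further list genes (BASS5, APR3, SDI1, SOT16 and relatives of named genes) were named after their values were seen. The members and lists were chosen with earlier results of these data known. Of the other list genes, AOP2 has no row in the count table and is not analysed here.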

Additional observations from a re-analysis of the deposited data

How the results depend on the processing

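With IAA the count of called genes among the 10 was 0 in all alternatives except DESeq2 (1). With MT it was 1 in the main analysis, 7 with DESeq2, 4 with no low-count filter, 2 at an adjusted p under 0.10, and 0 to 5 when 1 library was left out (0 without either control replicate or MT replicate 1, and 5 without MT replicate 2). In the test for any difference it was 0, against 6 with DESeq2, 2 with no low-count filter, 1 at an adjusted p under 0.10, and 0 to 2 when 1 library was left out. For MT against IAA it was 0 throughout. With no low-count filter, 108 of 24251 genes were called lower with MT, against 48 of 21267 in the main analysis. DESeq2 called 151 of 22385 genes lower with MT. The higher counts of the 10 genes with MT in these settings thus came with more genes called lower in all. Fits that left out 1 library kept 1 library in that group, and the calls over all genes also differed between them. Their counts therefore cannot separate a change in the 10 genes from a change in calls over all genes. Replicate numbers did not pair the libraries (correlations of their deviations 0.03, -0.15 and 0.01). With them as a replicate block, 2 genes were called with MT (CYP79F2 and FMOGS-OX1, with CYP83A1 at an adjusted p of 0.0589) and 1 in the test for any difference, with no change elsewhere. A crossed block of control and MT, added after seeing the data, called 8 of the 10 and 1327 genes in all. The labels give no such pairing, so these counts are no check on the calls. No median of the 10 changed sign: leave-one-out ranges were -0.38 to -0.15 with IAA, -0.67 to -0.29 with MT and -0.38 to -0.07 for MT against IAA. RLE factors and library totals shifted the median of all genes by at most 0.02. The cause of these differences was not tested.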
